A study of Mus musculus with 24 samples.

Results

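The data described here are the LAP2alpha SICER islands that lie outside LAP2alpha domains in wild-type mouse dermal fibroblasts. SICER islands are stretches of kb length with more ChIP reads than the input, and EDD domains (EDD peaks) are much larger enriched stretches called from the same library. The library was the LAP2alpha ChIP of Tmpo WT (Lap2alpha +/+) cells after 12 sonication cycles. An island was counted as outside when 0 of its bp lay in any of the 254 EDD domains of that library, and 5520 of the 8950 islands met this rule (61.7%, 95% Wilson interval 60.7 to 62.7). A further 3365 islands lay wholly inside domains and 65 crossed a domain edge. The islands were selected on measured values of this library, namely the called positions of its islands and domains, so the number, lengths and read densities of outside islands are given as a description, with no test.

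The study mapped chromatin bound by LAP2alpha, lamin A/C and lamin B1 in immortalized murine dermal fibroblasts by chromatin immunoprecipitation sequencing. Cells were WT or KO (Lap2alpha -/-), the latter lacking the LAP2alpha-specific exon of Tmpo, and all were fixed with formaldehyde and untreated, and their chromatin was sonicated for 12 or 30 cycles. Region lists of 12 libraries were used: LAP2alpha and lamin B1 in WT cells, and lamin A/C with the antibodies N18, against the N terminus, and 3A6, against the Ig fold, in WT and KO cells, each at both sonications. Every group held 1 library, so no difference between libraries has a replicate check, and intervals on shares or read densities cover counting error only. The labels name no separate cultures or lines, so genotype cannot be told apart from other differences between the WT and KO cells. Neither the fibroblast label nor the deletion could be checked from region lists. The library counted 5097817 reads in islands, in a range of 3989494 to 13601739 over the 12. For each sonication 1 WT input was labelled, and the WT LAP2alpha and lamin A/C libraries of that sonication were called against it. Lamin B1 at 12 cycles had 38.4 reads per kb of island, against 21.1 to 21.2 for LAP2alpha, 3A6 and N18 in WT at 12 cycles. The WT libraries at 30 cycles had 38.4 to 39.5. Which input lamin B1 at 12 cycles was called against was not checked.

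LAP2alpha is a splice form of the Tmpo gene without the membrane-spanning segment of its sister forms. It is found throughout the nucleoplasm and binds lamins A and C, whereas lamin B1 stays at the nuclear rim. Lamina-associated chromatin is typically poor in genes and in G+C and mostly silent, and the nucleoplasmic pool of lamin A/C can also contact gene-rich open chromatin. LAP2alpha binds the retinoblastoma protein as well, a repressor of E2F-driven cell cycle genes.

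Promoters in outside islands ranged from nearly free of CG dinucleotides to CG-dense, and the following 300-base windows (250 bases before to 50 after the start, genome build mm9, 5′ to 3′ on the gene's strand, CG in capitals) show that range. The first 3 lie in outside islands that islands of all 11 other libraries overlapped, and were taken from the densest of these that hold a protein-coding start. Both Eif4enif1 and Sfi1 belong to 1 island, and the remaining window is that of a gene named as a Cyp2d pseudogene but annotated as protein-coding.
Eif4enif1 promoter, chr11:3102145-3102444, strand plus: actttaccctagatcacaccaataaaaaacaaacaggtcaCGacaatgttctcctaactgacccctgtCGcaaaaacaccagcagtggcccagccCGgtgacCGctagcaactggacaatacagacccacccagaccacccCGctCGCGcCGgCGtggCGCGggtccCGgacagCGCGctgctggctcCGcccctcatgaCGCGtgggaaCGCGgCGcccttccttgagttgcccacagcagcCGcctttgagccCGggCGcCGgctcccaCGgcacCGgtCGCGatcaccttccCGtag
Sfi1 promoter, chr11:3093417-3093716, strand minus: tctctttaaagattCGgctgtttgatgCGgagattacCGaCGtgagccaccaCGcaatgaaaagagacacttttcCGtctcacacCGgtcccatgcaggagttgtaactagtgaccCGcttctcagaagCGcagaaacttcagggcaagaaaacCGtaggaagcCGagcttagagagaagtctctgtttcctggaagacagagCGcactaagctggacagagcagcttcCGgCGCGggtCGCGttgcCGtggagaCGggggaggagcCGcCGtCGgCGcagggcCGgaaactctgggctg
Cyp2d37-ps promoter, chr15:82520880-82521179, strand minus: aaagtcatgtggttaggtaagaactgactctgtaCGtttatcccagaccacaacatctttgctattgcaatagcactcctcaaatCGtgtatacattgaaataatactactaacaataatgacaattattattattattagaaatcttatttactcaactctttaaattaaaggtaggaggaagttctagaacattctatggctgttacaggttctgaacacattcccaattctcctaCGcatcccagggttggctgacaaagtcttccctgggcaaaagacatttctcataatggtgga
Eif4enif1, a partner of the cap-binding factor eIF4E, had 29 CG in its window and Sfi1, a centrosomal protein, had 24. The Cyp2d37-ps window had 3.

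The next 4 windows lie in outside islands that at most 1 other library overlapped, and were taken from the densest of such islands that hold a protein-coding start. They belong to the chemokines Cxcl1 and Cxcl5, to the polo-like kinase gene Plk2 and to the linker histone gene Hist1h1a.
Cxcl1 promoter, chr5:91320017-91320316, strand plus: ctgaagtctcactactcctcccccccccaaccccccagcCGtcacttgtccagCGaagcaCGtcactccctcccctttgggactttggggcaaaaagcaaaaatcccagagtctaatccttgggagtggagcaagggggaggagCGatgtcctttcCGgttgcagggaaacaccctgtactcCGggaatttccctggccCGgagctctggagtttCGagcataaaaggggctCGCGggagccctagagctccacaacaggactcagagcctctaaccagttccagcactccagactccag
Cxcl5 promoter, chr5:91188075-91188374, strand plus: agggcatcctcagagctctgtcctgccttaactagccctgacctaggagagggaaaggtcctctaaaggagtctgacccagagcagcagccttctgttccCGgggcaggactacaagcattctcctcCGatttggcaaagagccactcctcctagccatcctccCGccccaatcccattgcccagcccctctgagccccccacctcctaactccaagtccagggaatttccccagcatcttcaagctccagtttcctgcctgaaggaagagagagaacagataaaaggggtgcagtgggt
Plk2 promoter, chr13:111185002-111185301, strand plus: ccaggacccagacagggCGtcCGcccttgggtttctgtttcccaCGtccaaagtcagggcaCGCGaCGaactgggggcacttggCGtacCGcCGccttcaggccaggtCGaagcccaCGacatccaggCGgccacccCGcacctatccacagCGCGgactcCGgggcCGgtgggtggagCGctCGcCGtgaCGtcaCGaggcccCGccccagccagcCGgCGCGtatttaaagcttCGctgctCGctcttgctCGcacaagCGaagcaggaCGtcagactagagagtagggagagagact
Hist1h1a promoter, chr13:23855287-23855586, strand plus: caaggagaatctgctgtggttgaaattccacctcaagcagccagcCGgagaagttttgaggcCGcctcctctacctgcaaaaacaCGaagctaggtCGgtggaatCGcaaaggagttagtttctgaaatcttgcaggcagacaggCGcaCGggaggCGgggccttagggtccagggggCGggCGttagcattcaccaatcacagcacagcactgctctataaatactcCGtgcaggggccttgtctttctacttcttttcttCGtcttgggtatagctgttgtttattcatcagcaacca
The Cxcl1 window had 10 CG, the Cxcl5 window 3, the Plk2 window 31 and the Hist1h1a window 12. High and low CG counts thus stood among the windows shown from both sets. For all 9 genes with their start in an outside island shared by all 11 other libraries, the median was 3 CG. It was 16 for 91 genes in outside islands with no other library. Windows with 10 or more CG made up 33.3% and 61.5%, and 9 genes are few. Over all 1565 protein-coding gene symbols with their start in an outside island, the median was 12 CG per window, against 15 for 2005 symbols with their start in an inside island and 11 for 22203 windows of the annotation. A window with 10 or more CG was found for 56.8% of the genes in outside islands, 62.5% of those in inside islands and 54.1% of all.

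A different kind of sequence stood in a pair of dense outside islands at the start of chromosome 9. Both were built of a repeat with a period of 234 bp, where a base matched the base 1 period away in 70.2% and 72.5% of positions. 1 copy from each island is shown, with CG in capitals.
Repeat copy, chr9:3004001-3004234, strand plus: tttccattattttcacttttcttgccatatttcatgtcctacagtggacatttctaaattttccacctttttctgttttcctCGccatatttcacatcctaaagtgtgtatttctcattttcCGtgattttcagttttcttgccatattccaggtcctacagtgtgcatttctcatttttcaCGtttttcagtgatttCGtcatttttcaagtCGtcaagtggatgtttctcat
Repeat copy, chr9:3025501-3025734, strand plus: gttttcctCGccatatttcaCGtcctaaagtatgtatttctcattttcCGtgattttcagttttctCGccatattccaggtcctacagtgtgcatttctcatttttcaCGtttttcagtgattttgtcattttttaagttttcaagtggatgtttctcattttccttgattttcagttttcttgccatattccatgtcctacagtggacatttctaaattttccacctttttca
The first copy was 84.2% identical to the next 234 bases and the second 96.2%. Of all 8950 islands, 3 (0.0335%) reached a period match of 60%, and all 3 were outside islands: the third was chrX:166505001-166506000, 1 kb long, with a period of 62 bp and no overlap with any other library.

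Outside islands covered 129.5 Mb and held 53.5% of the library's reads in islands. Islands were sparser outside domains, with 2.59 per Mb of sequence outside domains against 6.64 per Mb of domain, and they covered 6.07% of the sequence outside domains against 21.7% of domain sequence. The domains themselves took up 19.2% of the genome. An outside island had a median length of 16 kb, with 9 kb and 44 kb as the 10th and 90th percentiles and a range of 1 to 450 kb. Inside islands were longer, with a median of 19 kb and 65 kb as the 90th percentile. Islands of 100 kb or more numbered 103 outside and 169 inside, and islands under 5 kb numbered 50 and 14.

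Read density differed little between the classes. The median was 20.4 reads per kb for outside islands (10th to 90th percentile 18.2 to 23.3) and 20.2 for inside islands (17.8 to 23.3), and the sum of reads over the sum of lengths was 21.1 and 21.2. The densest inside island had 69.6 reads per kb, whereas outside islands reached 318.6. Above 40 reads per kb there were 22 outside islands and 7 inside islands, 0.324% of all 8950. No island held fewer than 51 reads. The 181 outside islands with 25 to 40 reads per kb had a median length of 6 kb, although the 5 longest islands were also above the median density.

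**Figure D1:**
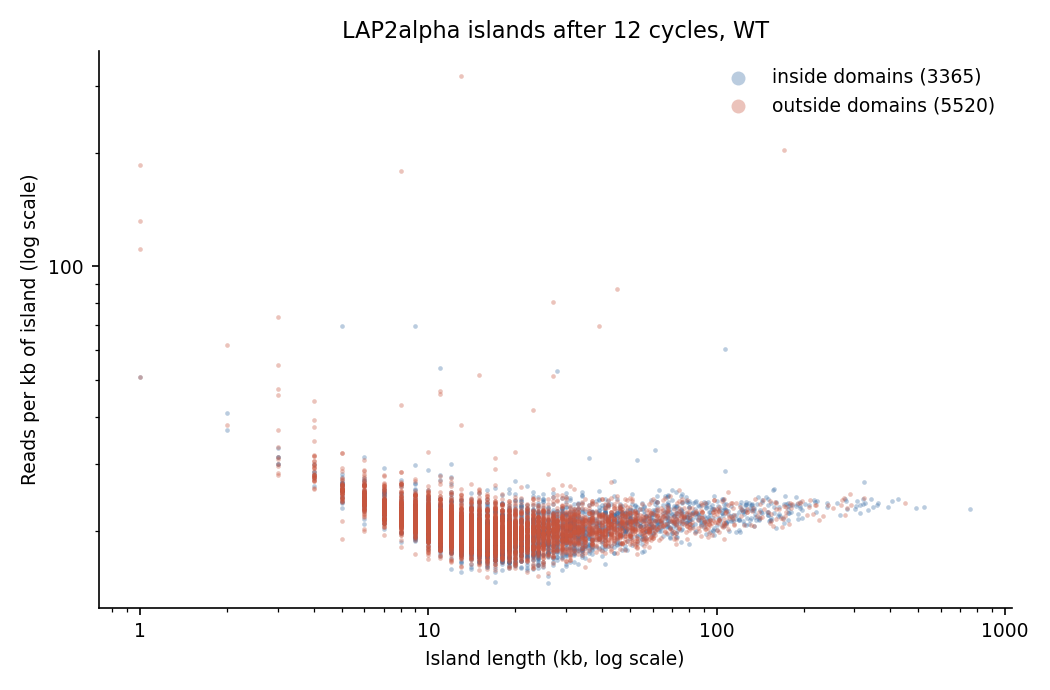
Length (kb, log scale) against reads per kb (log scale) of the 5520 LAP2alpha islands outside domains and the 3365 islands inside them, 1 point per island. The 2 clouds overlap around 20 reads per kb, and the points above 100 reads per kb are all outside islands, among them the 171-kb island at the start of chromosome 11.

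The densest outside island of at least 5 kb was chr17:39973001-39986000, with 318.6 reads per kb (exact Poisson 95% interval 309.0 to 328.5). It held the annotated pseudogene AY036118 and no protein-coding gene, and the nearest protein-coding start, that of Pgk2, was 360 kb away. Only N18 islands at 12 cycles overlapped it, in WT cells with 646 reads per kb and in KO cells with 617. These N18 islands were shorter and held 3876 and 5555 reads, against 4142 in the LAP2alpha island. The LAP2alpha island lay 4872 kb from the nearest LAP2alpha domain but inside a lamin B1 domain of each sonication.

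The next, chr11:3000001-3171000, held 34836 reads, the most of any LAP2alpha island (203.7 per kb, 201.6 to 205.9). It begins at the first assembled bases of chromosome 11 and holds the starts of Sfi1 and Eif4enif1, among others. Islands of all 11 other libraries overlapped it, and it lay in no domain of any library. Those islands held between 796 reads, in lamin B1 at 12 cycles, and 67308 reads, in 3A6 KO at 30 cycles. Lamin B1 at 12 cycles was the lowest by far, with 37.9 reads per kb, near the 38.4 over all islands of that library. Lamin B1 at 30 cycles had 555. Each density is that of the library's own islands, which differed in length, so they do not compare the same stretch. Lamin A/C islands at 12 cycles held 32093 to 34820 reads here, close to the 34836 of LAP2alpha.

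The repeat islands of chromosome 9 followed: chr9:3000001-3008000 with 178.5 reads per kb and chr9:3012001-3039000 with 80.6. The first held the starts of Gm10722 and Gm11168, and the second those of 10 further predicted genes. Islands of the same 9 libraries overlapped both, and lamin B1 at 12 cycles and N18 KO at 30 cycles had none there. At the first, lamin A/C islands at 12 cycles held 1336 to 1483 reads, against 1428 in the LAP2alpha island. The remaining island of this set was chrX:166402001-166447000, near the end of chromosome X, with 87.4 reads per kb. It overlapped Mid1, a microtubule-associated ubiquitin ligase, and held the start of Gm17379, and it lay 154 Mb from the nearest LAP2alpha domain. Copies of a sequence that are nearly identical cannot be told apart in these counts, and their part in the density of these islands was not tested.

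Below these, a few short dense islands sat on the starts of single named genes and on no other library's island. The 4-kb island chr5:91320001-91324000 began at the Cxcl1 promoter window and held 138 reads (34.5 per kb, 29.0 to 40.8), and the 4-kb island chr5:91188001-91192000 did the same at Cxcl5 with 120 reads (30.0 per kb, 24.9 to 35.9). The 8-kb island chr13:111185001-111193000 began at Plk2 and held 213 reads (26.6 per kb, 23.2 to 30.5). The 7-kb island chr6:42486001-42493000 held the start of the olfactory receptor gene Olfr455 and 184 reads (26.3 per kb, 22.6 to 30.4). The 6-kb island chr13:23853001-23859000 spanned the histone genes Hist1h4a, Hist1h3a and Hist1h1a with 158 reads (26.3 per kb, 22.4 to 30.8), and only lamin B1 at 12 cycles overlapped it. In all, 17 outside islands over 25 reads per kb held a protein-coding start. A start lay in 6.08% of the 181 outside islands with 25 to 40 reads per kb. Of the 22 above 40 it lay in 27.3%, against 18.4% of all outside islands. Besides those already named they included the interferon-induced gene Ifit3 (26.3 reads per kb), the MHC class I genes H2-Q6 and H2-Q7 (25.8) and the chaperone gene Calr, which shares its 74-kb island with 6 other starts (25.7). Of the 767 outside islands with exactly 1 protein-coding start, the median had 54.0% of its length downstream of that start, against 56.8% for 637 inside islands of this kind.

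The 5 longest outside islands lay on chromosomes 15 and 8. The longest, chr15:101898001-102348000, spanned 450 kb and held 10670 reads. It contained 22 protein-coding starts, the most of any outside island, among them Eif4b, a translation initiation factor, Igfbp6, which binds insulin-like growth factors, Espl1, the protease separase, and the transcription factor genes Sp1 and Sp7. It was 27 kb from a LAP2alpha domain. The next were chr15:81766001-82090000 of 324 kb with 14 starts including Xrcc6, which encodes the DNA end-binding protein Ku70, and chr8:108672001-108965000 of 293 kb with 6 starts including Prmt7, an arginine methyltransferase. They were followed by chr15:81473001-81762000 of 289 kb, with 11 starts including Rangap1 and part of the acetyltransferase gene Ep300, and by chr8:109206001-109488000 of 282 kb, with 5 starts including the hyaluronan synthase Has3. Their densities were alike, from 22.93 to 24.99 reads per kb. N18 islands at 12 cycles overlapped all 5 in WT and in KO, N18 KO at 30 cycles also overlapped all 5, and LAP2alpha at 30 cycles overlapped none of them.

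Most outside islands were far from the domains. The median distance to the nearest LAP2alpha domain was 3.44 Mb (quartiles 0.853 and 14.2 Mb), 72.5% were over 1 Mb away and 29.5% over 10 Mb, and 153 (2.77%) lay within 100 kb. On the threshold of the rule, the nearest outside island was chr8:94021001-94145000, in the Fto gene and 4 kb from a domain, with 20.6 reads per kb. It was followed by chr11:53148001-53167000 at Aff4 and chr11:87464001-87476000 in Hsf5, both 7 kb away, with 16.7 and 19.5 reads per kb. The islands with the fewest bp in a domain were short ones wholly inside, of 1 to 2 kb and 37.0 to 51.0 reads per kb, such as chrX:7500001-7502000 at Pcsk1n. Among islands that crossed an edge, taken here after the values were seen, the smallest part inside was 3 kb of the 10-kb island at Secisbp2 on chromosome 13 (20.5 reads per kb), 5 kb of a 59-kb island at Emg1, Phb2 and Ptpn6 and 7 kb of a 46-kb island at Vmn1r54, both on chromosome 6.

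Chromosomes differed widely in both lists. Chromosome 6 held 800 outside islands, chromosome 3 held 623, chromosome 13 held 568 and chromosome 8 held 530. Chromosomes 1, 7 and 12 held 1, 3 and 1, although domains covered 34.1%, 37.0% and 22.8% of them, and they held few inside islands too, namely 10, 0 and 0. On chromosomes 3 and X, where domains covered 1.06% and 1.52% of the sequence, 94.3% and 90.9% of all LAP2alpha islands were outside, against 22.9% on chromosome 5. The highest density was on chromosome 19 with 7.93 outside islands per Mb of sequence outside domains. Whether the number of copies of whole chromosomes in these immortalized cells moved these counts was not tested.

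**Figure D2:**
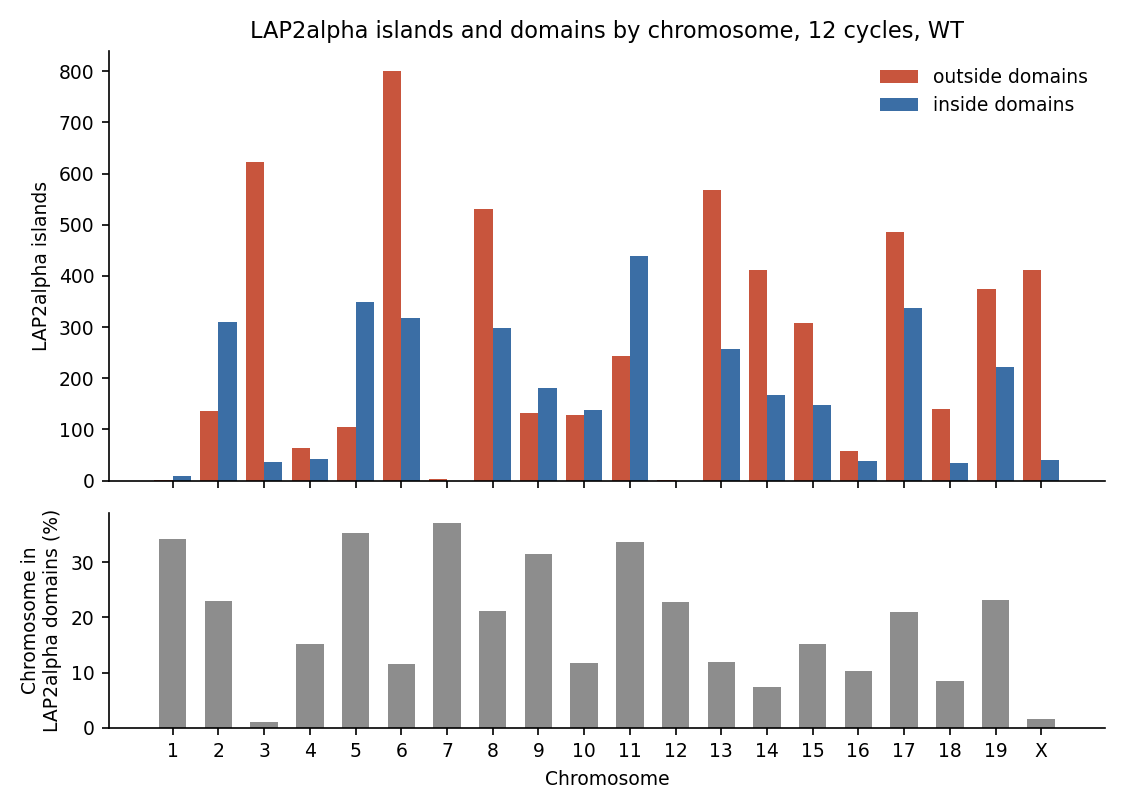
Number of LAP2alpha islands outside and inside LAP2alpha domains on each chromosome (top, bars) and percent of the chromosome in LAP2alpha domains (bottom). Chromosomes 3 and X have many outside islands and almost no domain, and chromosomes 1, 7 and 12 have domains and almost no islands.

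Outside islands clustered in places to a density usual for domains. Of 1902 1-Mb bins with no domain bp, 941 had no island and the median bin was covered to 0.5%, but 406 (21.3%) were covered to 7.65% or more, the median of the 306 bins wholly inside domains. The densest bin was chr8:97000001-98000000, covered to 77.8% by 10 islands and lying 1.77 Mb from a LAP2alpha domain. It holds 27 protein-coding starts, among them the chemokines Ccl22, Ccl17 and Cx3cl1, and lay wholly in domains of N18 KO at 12 cycles and 3A6 KO at 30 cycles. The next was chr8:108000001-109000000, covered to 75.8%, with 38 starts including Ctcf, the insulator-binding zinc finger protein, in no domain of any library. The third, chr15:98000001-99000000, was covered to 75.3% and held 39 starts, among them olfactory receptor genes such as Olfr279 and Olfr288 as well as Wnt1 and Wnt10b.

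Outside islands were poorer in genes than inside islands and richer than the genome. A protein-coding transcription start lay in 1018 outside islands (18.4%, 17.4 to 19.5) and in 1020 inside islands (30.3%, 28.8 to 31.9), against 23.1% of all 8950. There were 12.2 starts per Mb of outside island, 18.9 per Mb of inside island and 8.47 per Mb of genome. Annotated protein-coding genes covered 47.0% of outside island sequence, 57.3% of inside island sequence and 37.7% of the genome, and exons covered 4.80%, 7.18% and 2.92%. A further 39.5% of outside islands lay in a gene body without a start and 42.0% touched no protein-coding gene, against 41.2% and 28.5% of inside islands. Outside minus inside, the share with a start differed by -11.9 percentage points, by -12.0 with inside islands weighted to the chromosomes of outside islands and by -8.95 with weights for length.

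The median distance to the nearest protein-coding start was 32.1 kb for outside islands and 12.1 kb for inside islands. A start lay within 10 kb of 31.9% of outside and 48.1% of inside islands, and no start lay within 100 kb of 24.8% and 15.0%. Over 1 Mb from any start were 15 outside islands and 0 inside islands. The farthest was chrX:128232001-128238000, at 1.95 Mb from Diap2.

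**Figure D3:**
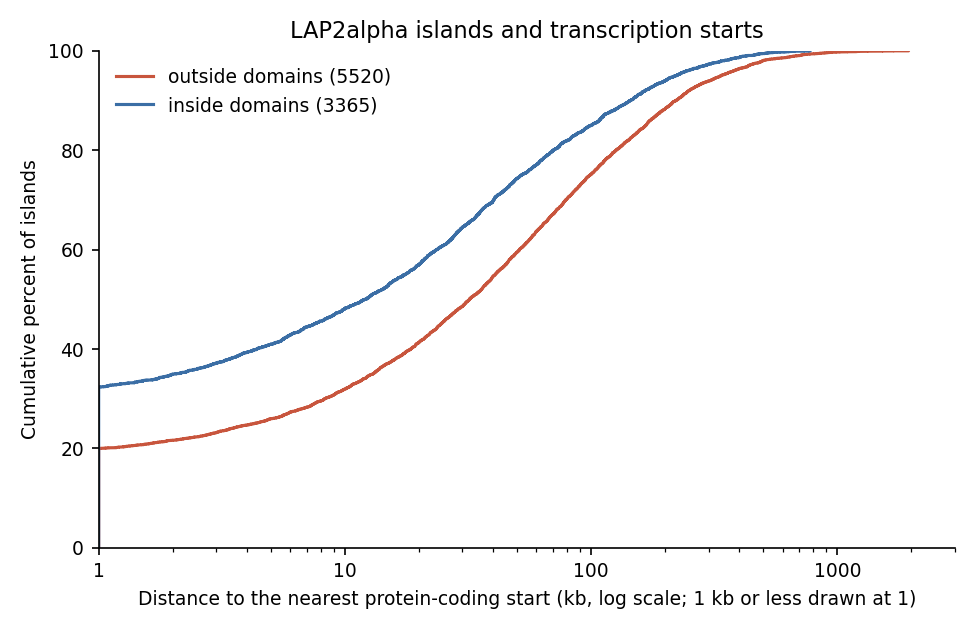
Cumulative percent of LAP2alpha islands by distance to the nearest protein-coding transcription start (kb, log scale, with 1 kb or less drawn at 1). The line of the 5520 outside islands runs below that of the 3365 inside islands, with medians of 32.1 and 12.1 kb.

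Base composition followed the same order. Median G+C was 44.0% in outside islands, 47.8% in inside islands and 41.8% over the genome, and median CG counts were 9.65 per kb outside and 12.3 inside, against 8.34 per kb over the genome. The 1205 outside islands that touched a lamin B1 domain of either sonication had a median G+C of 41.4%, and 10.5% of them held a start. The 2783 outside islands in no domain of any library had 44.2% G+C, and 20.6% of them held a start.

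Gene families were unevenly spread over the outside islands, where 7.05% of the 22208 protein-coding symbols had their start. Hox genes, which pattern the body axis, had 11 of 39 starts in outside islands and 0 in inside islands. Only 2 islands held them: chr6:52134001-52242000 with 9 Hoxa genes from Hoxa3 to Hoxa13 (20.7 reads per kb) and chr15:102839001-103060000 with Hoxc4 and Hoxc5 (23.4). Both were overlapped by N18 and 3A6 islands of WT cells at 12 cycles. Neighbouring starts in 1 island are 1 observation, so no interval is given for these counts.

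Among genes of the cell cycle, the E2F and retinoblastoma family had 3 of 13 starts in outside islands: E2f4, a mostly repressive E2F (23.7 reads per kb), Rbl2, the pocket protein p130 (22.1), and E2f3 (17.7). Islands of all 4 lamin A/C libraries at 12 cycles overlapped those at E2f4 and Rbl2, whereas WT lamin A/C alone overlapped the one at E2f3. E2F targets had 2 of 20, the helicase subunit Mcm5 (24.1) and the sliding clamp Pcna (20.2), the latter in an 11-kb island with no other library. Of the lamins and lamina proteins, 1 of 16 did, Banf1, the DNA-bridging factor BAF (23.5).

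Lists of genes typical of fibroblasts are short, so their counts say little. Of 21 fibroblast matrix genes and 13 transcription factors of skin and limb mesenchyme, 0 had their start in an outside island, and of 43 collagens 1 did, Col22a1. Inside islands held 2, 1 and 4 starts of these lists, 9.52%, 7.69% and 9.30%, against 9.03% of all symbols. Immediate early genes had 2 of 14, the AP-1 subunits Junb (23.4 reads per kb) and Fosl2 (21.0). Wnt ligands and Frizzled receptors had 2 of 29, Wnt1 and Wnt10b, in 1 island of 277 kb. Housekeeping genes had 1 of 17, Tbp, ribosomal proteins 5 of 79 and histone cluster genes 7 of 67, in 3 islands.

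Other gene families varied. Potassium channel genes had 14 of 94 starts in outside islands and 16 in inside islands, and 10 other libraries overlapped the islands at Kcnk9, Kcnq3, Kcna2 and Kcna10. Cadherins had 3 of 23 (Cdh16, Cdh3 and Cdh24) and protocadherins 0 of 36. Keratins and keratin-associated proteins had 0 of 97 in outside islands but 18 in inside islands and 8 in islands at a domain edge. Olfactory receptors had 24 of 1113, against 3 inside, vomeronasal receptors 4 of 321 and Zfp zinc finger genes 24 of 367. The Zfp share, 6.54%, was near the 7.05% of all symbols.

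Every outside island was set against the islands of the other 11 libraries, with 1 bp counted as overlap. WT lamin A/C at 12 cycles overlapped the most: 3A6 islands overlapped 2685 outside islands (48.6%, 47.32 to 49.96, against 52.3% of all islands) and N18 islands 2630 (47.6%, 46.3 to 49.0, against 51.5%). Either of these overlapped 3510 (63.6%, against 66.1%) and both overlapped 1805 (32.7%, against 37.7%). Inside islands were overlapped more often by each library, at 57.9% for 3A6 and 57.3% for N18. Outside minus inside, this was -9.25 percentage points for 3A6 and -9.68 for N18. With inside islands weighted to the chromosomes of outside islands it was -23.5 for each, and with weights for length -5.82 and -5.74.

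LAP2alpha itself at 30 cycles overlapped 1314 outside islands (23.8%, 22.7 to 24.9, against 32.1% of all) and 45.7% of inside islands. The difference, 21.9 percentage points, was 18.5 with weights for chromosome and 21.7 with weights for length, and the outside share was the lower on 15 of 17 chromosomes with enough islands to compare.

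For lamin B1 the order was turned. Its islands at 30 cycles overlapped 1529 outside islands (27.7%, 26.5 to 28.9, against 23.4% of all) and 16.3% of inside islands, and the outside share was the higher on 14 of 17 chromosomes. This difference, 11.4 percentage points, was 5.71 with weights for chromosome and 12.2 with weights for length. At 12 cycles lamin B1 islands overlapped 1715 outside islands (31.1%, 29.9 to 32.3, against 28.2% of all) and 23.5% of inside islands. That second difference, 7.56 percentage points, became -1.98 with inside islands weighted to the chromosomes of outside islands, and the outside share was the higher on 10 chromosomes and the lower on 6, so it did not hold within chromosomes.

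The 3A6 islands of WT cells at 30 cycles went with lamin B1: they overlapped 1409 outside islands (25.5%, 24.4 to 26.7, against 21.3% of all) and 14.5% of inside islands, with the higher share outside on 12 of 17 chromosomes. The N18 islands of WT cells at 30 cycles overlapped 2078 (37.6%, against 39.9% of all) and 43.4% of inside islands. In WT the 2 antibodies to lamin A/C thus ordered the 2 classes oppositely at 30 cycles. The N18 difference there, -5.77 percentage points, was -19.0 with weights for chromosome and -3.51 with weights for length. In KO at 30 cycles the outside share was the lower with both antibodies, the inside shares being 50.2% for N18 and 20.3% for 3A6. Among KO libraries, N18 overlapped 1899 outside islands at 12 cycles (34.4%, against 37.9%) and 2122 at 30 (38.4%, against 43.1%). With 3A6 the numbers were 1421 at 12 cycles (25.7%, against 26.9%) and 1024 at 30 (18.6%, against 19.3%). The small 3A6 KO differences between the classes, -2.76 percentage points at 12 cycles and -1.75 at 30, became 0.149 and 0.227 with weights for length.

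**Figure D4:**
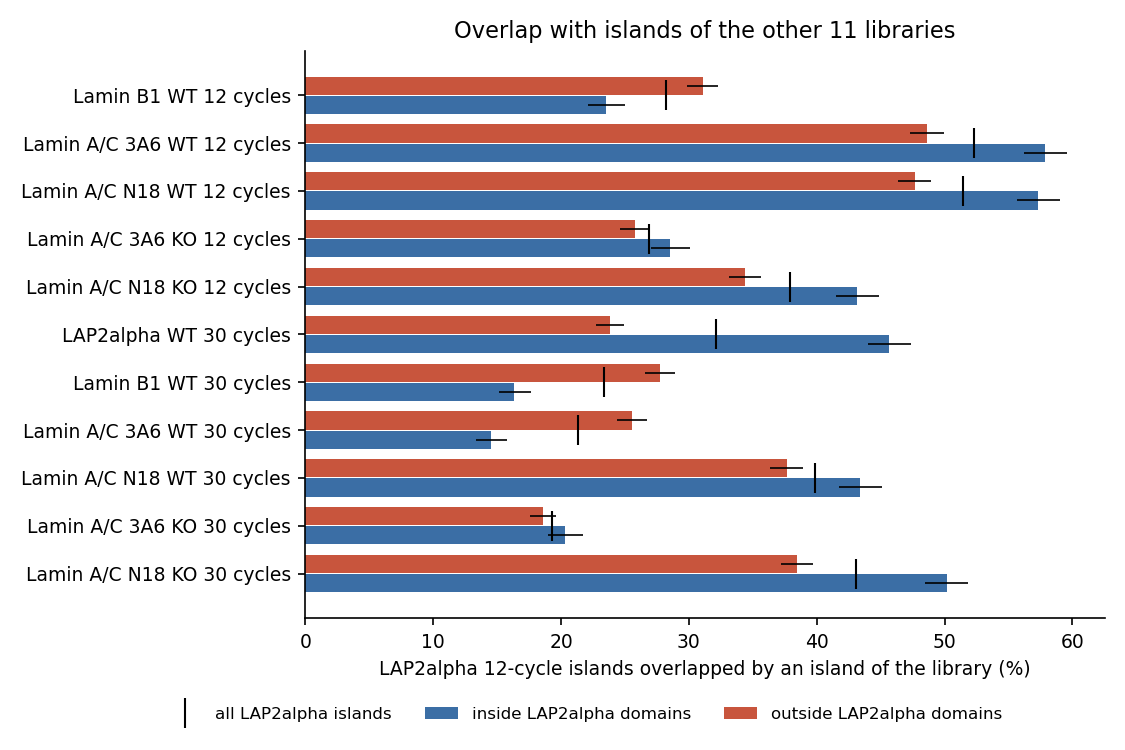
Percent of LAP2alpha 12-cycle islands overlapped by an island of each other library, for outside and inside islands (bars, with 95% Wilson intervals as error lines) and for all islands (ticks). Outside bars are the longer for lamin B1 at both sonications and 3A6 WT at 30 cycles, and the shorter for the other 8 libraries.

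Overlap varied more between chromosomes than between the classes. For lamin B1 at 12 cycles it ran from 57.9% of outside islands on chromosome 8 to 0 of 57 islands on chromosome 16, and for N18 KO at 12 cycles from 82.9% on chromosome 18 to 0.775% on chromosome 10. LAP2alpha at 30 cycles overlapped 66.2% on chromosome 14 but 8.68% on chromosome 8, where islands of the lamin libraries overlapped 39.1% to 69.4%.

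**Figure D5:**
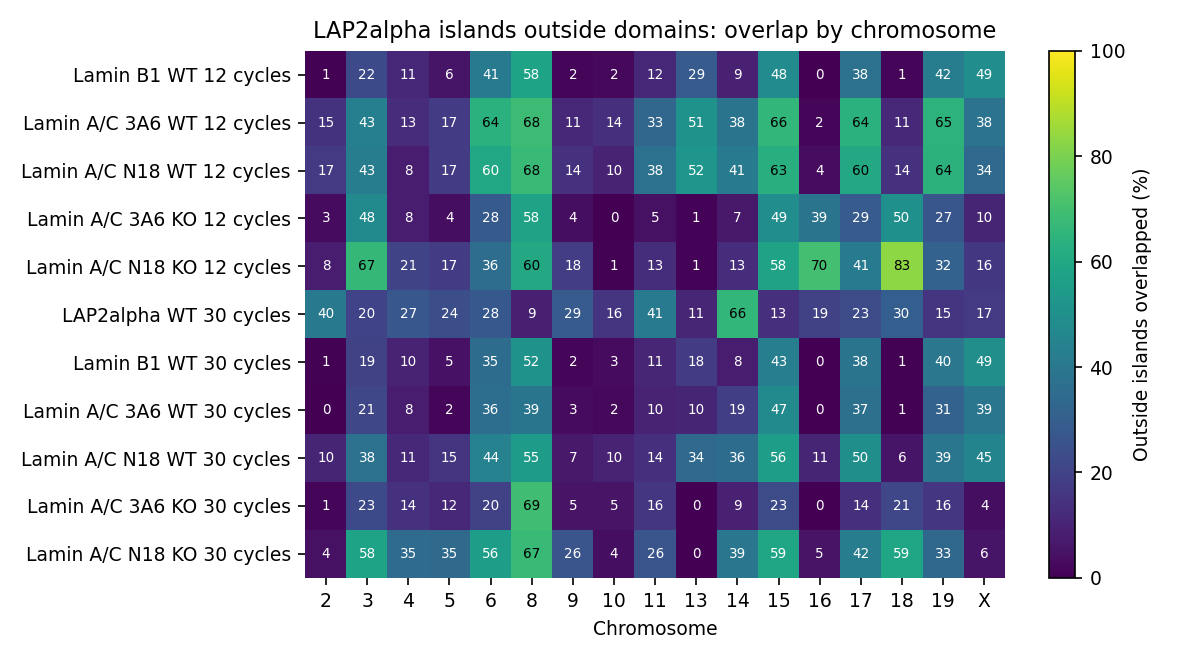
Percent of outside LAP2alpha islands overlapped by islands of each other library (rows) on each chromosome with at least 50 outside islands (columns), with the percent written in each cell. Chromosome 8 is high in all lamin libraries and low in LAP2alpha at 30 cycles, and chromosome 13 is at 1.06% or less in all 4 KO libraries.

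The number of other libraries per outside island had a median of 3. No other library overlapped 630 outside islands (11.4%, against 10.4% of all islands and 8.80% of inside islands), and all 11 overlapped 29 (0.525%, against 1.07% of all and 1.96% of inside islands). Islands with more overlaps were longer: the median length was 12.5 kb with no library, 15 kb with 1 to 3, 19 kb with 4 to 7, 27 kb with 8 to 10 and 43 kb with all 11. A longer island can be overlapped by chance more easily, and this was not tested. A start lay in 13.02% of the islands with no other library and in 22.3% of those with 4 to 7.

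Of the 29 islands shared by all 11 libraries, 11 lay on chromosome 8, 6 on chromosome 15 and 4 on chromosome 6. After the chromosome 11 island described above, the longest were chr8:110496001-110636000 of 140 kb with no gene (Psmd7 is the nearest, at 384 kb) and chr15:82199001-82301000 of 102 kb with the cytochrome P450 genes Cyp2d22, Cyp2d11, Cyp2d10 and Cyp2d9. Then came chr6:137306001-137401000 in Ptpro, a receptor phosphatase, and chr8:92961001-93052000, whose nearest start was Tox3 at 88.8 kb. The last lay in domains of 10 libraries, those of all but LAP2alpha.

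The longest islands that no other library overlapped were chr15:5103001-5165000 of 62 kb and chr15:32265001-32319000 of 54 kb. The first held the start of Ttc33 and parts of Prkaa1, a catalytic subunit of AMP-activated kinase, and of the prostaglandin receptor gene Ptger4, with 22.6 reads per kb. The second lay in Sema5a, a semaphorin gene (21.6). They were followed by an island in Deptor, an mTOR inhibitor (chr15:54989001-55038000, 22.5 reads per kb), one at Zzz3 and Ak5 (chr3:152112001-152161000, 19.7) and one at Gm5546 (chr3:104165001-104213000, 21.1). None of the 5 lay in a domain of any library.

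About as many outside islands lay in a domain of some other library as in none. WT lamin A/C domains at 12 cycles, which touched most inside islands, touched 312 outside islands for N18 (5.65%, against 33.1% of all islands and 77.7% of inside islands) and 381 for 3A6 (6.90%, against 28.7% and 64.2%). Lamin B1 domains touched 487 at 12 cycles (8.82%, against 9.15% of all) and 1167 at 30 cycles (21.1%, against 17.1%), where the inside share was 10.5%. LAP2alpha domains at 30 cycles touched 620 (11.2%, against 21.0% of all and 36.9% of inside islands). The 3A6 WT domains at 30 cycles touched 680 (12.3%, against 8.96% of all and 3.57% of inside islands), and N18 WT domains 549 (9.95%, against 15.0%).

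In KO cells at 12 cycles, N18 domains touched 736 outside islands (13.3%, against 24.5% of all) and 3A6 domains 671 (12.2%, against 16.1%). At 30 cycles the KO values were 797 for N18 (14.4%, against 37.7%) and 558 for 3A6 (10.1%, against 16.0%). A total of 2783 outside islands (50.4%, against 33.9% of all and 7.16% of inside islands) were in no domain of any of the 11 libraries.

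Genotype was compared at the outside islands within each antibody and sonication, as islands overlapped in WT and KO (kept), in WT only (lost) or in KO only (gained). With N18 at 12 cycles 1218 were kept, 1412 lost and 681 gained, so that 46.3% (44.4 to 48.2) of those overlapped in WT were kept, against 59.7% for inside islands. With 3A6 at 12 cycles 952 were kept, 1733 lost and 469 gained (35.5% kept, against 43.1% inside). With N18 at 30 cycles 1081 were kept, 997 lost and 1041 gained (52.0%, against 67.7%), and with 3A6 at 30 cycles 479, 930 and 545 (34.0%, against 47.4%). The kept share was the lower for outside islands in all 4 comparisons, and so was the share of all islands of the class overlapped in KO. With N18 that KO share was 34.4% outside and 43.2% inside at 12 cycles, and 38.4% and 50.2% at 30. With 3A6 it was 25.7% and 28.5% at 12 cycles, and 18.6% and 20.3% at 30. Whether the kept shares differed beyond this was not tested. Kept shares were not weighted for length or chromosome, and outside islands were shorter (median 16 kb against 19 kb inside).

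At domain level the KO minus WT difference was opposite in the 2 classes at 12 cycles. N18 domains touched 5.65% of outside islands in WT and 13.3% in KO, while for inside islands the share was 77.7% in WT and 42.7% in KO. With 3A6 domains the outside share was 6.90% in WT and 12.2% in KO, and the inside share 64.2% and 22.6%. The classes were set by WT LAP2alpha domains at 12 cycles, called against the same input as these WT lamin A/C domains. Inside shares thus started high in WT and outside shares low. The opposite direction at 12 cycles cannot be told apart from this selection. At 30 cycles the order differed. N18 domains touched 9.95% of outside islands in WT and 14.4% in KO, and 23.2% and 75.5% of inside islands, so both shares were the higher in KO. With 3A6 domains the outside share was 12.3% in WT and 10.1% in KO, and the inside share 3.57% and 25.9%. In all, 752 outside islands lay in a lamin A/C domain at 12 cycles in KO and in none in WT (13.6%, 12.7 to 14.6).

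Single chromosomes differed far more than the whole. On chromosome 13, N18 islands at 12 cycles overlapped 298 of 568 outside islands in WT and 5 in KO, 3A6 islands 290 and 6, and N18 islands at 30 cycles 195 and 1. Inside islands of chromosome 13 shifted the same way. With N18 at 12 cycles their share was 71.6% in WT and 5.84% in KO, and with 3A6 75.1% and 2.72%. On chromosome 18 the order was the reverse: of 140 outside islands, N18 islands at 12 cycles overlapped 20 in WT and 116 in KO, and 3A6 islands 16 and 70. The inside shares there were 17.6% in WT and 94.1% in KO with N18, and 14.7% and 58.8% with 3A6. Without these 2 chromosomes, the kept share of outside islands was 51.9% with N18 at 12 cycles and 39.3% with 3A6. These 2 chromosomes thus moved the kept shares only in part. For domains of N18 at 12 cycles, the outside islands touched on chromosome 3 numbered 0 in WT and 165 in KO, and on chromosome X 0 and 82. On chromosome 8, N18 domains at 12 cycles touched 59 of 530 outside islands in WT and 265 in KO. Inside shares for these domains in WT and KO were 21.6% and 100% on chromosome 3. They were 97.5% and 100% on chromosome X, and 93.0% and 98.3% on chromosome 8. A change of whole chromosomes between the lines cannot be told apart from an effect of the deletion.

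Sonication was compared the same way. Of outside islands overlapped at 12 cycles, the same antibody overlapped 62.3% at 30 cycles for lamin B1, 46.9% for N18 WT, 32.3% for 3A6 WT, 66.6% for N18 KO and 42.0% for 3A6 KO. N18 kept a larger share than 3A6 in each genotype, but its 30-cycle islands also overlapped more of all outside islands. Over all outside islands the 30-cycle shares were 37.6% for N18 WT, 25.5% for 3A6 WT, 38.4% for N18 KO and 18.6% for 3A6 KO. Whether the order of the kept shares goes beyond this was not tested. The kept shares were not computed for inside islands, so whether their order is particular to outside islands was not tested.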

How the data were processed

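Region lists of 12 ChIP-seq libraries were analysed. The 4 inputs and 8 histone-mark samples were not analysed here. Per the submitters' processing notes and the study's methods, adapters were cut by the authors with cutadapt and Bowtie2 2.1.0 was used for alignment to mm9. They kept reads with mapping quality of at least 20, removed duplicates and down-sampled the ChIP reads to the matching input with Picard. The authors called islands with SICER 1.1 (window 1000 bp, gap 3000 bp, FDR 0.01), and the deposited lists hold read counts per island, not divided by length or depth. The deposited EDD domain lists (bin 11 kb, gap penalty 5, FDR 0.1) hold an EDD score, which was not used beyond the positions. Regions were called per library against its input.

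Islands are given from 1 with the last base included. Island classes, overlaps, distances and base composition were computed in Python 3.11.15 with pandas 2.3.3, numpy 2.4.6 and pysam 0.24.0 from the mm9 genome and the GENCODE annotation on that build, 0 regions passing a chromosome end. Overlap and distance code was tested on simulated regions. Protein-coding starts were those of 22350 genes, of 22208 symbols. A motif count is that of CG on 1 strand, which is the same on both. Promoter windows and repeat copies were read from the genome, and the period was the shift of 50 to 400 bp with most matching bases, in up to 20000 bases of an island. Shares have 95% Wilson intervals (statsmodels 0.14.6), and read densities of single islands exact Poisson intervals (scipy 1.17.1). Reads without molecular identifiers are not independent molecules, and islands are not replicates. Depth ran from 3989494 to 13601739 reads in islands per library.

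Named islands were the 5 longest, the 5 densest of at least 5 kb, the 5 longest overlapped by all 11 or by none of the other libraries, the 3 nearest to a domain and the 3 with the fewest bp in one. They are named by up to 3 protein-coding genes whose start they hold, or by the nearest start. Named promoters were the 4 in the densest islands of 2 sets. 1 of these windows is not reported here. Other named islands and genes were chosen after their values were seen. The islands and gene lists were chosen with earlier results of these data known. Alternatives changed the definition of outside, the read count minimum, the chromosomes, the overlap that counts, the annotation and the weights of the compared islands. With 1 library per group no test between groups was made.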

Additional observations from a re-analysis of the deposited data

Results flagged for a closer look

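The percent of outside islands overlapped differed in opposite directions between WT and KO, depending on antibody or sonication. These differences were not tested, since each group has 1 library. For islands, KO minus WT was 0.797 percentage points with N18 at 30 cycles, -6.97 with 3A6 at 30 cycles, -13.2 with N18 at 12 cycles and -22.9 with 3A6 at 12 cycles. For domains, it was 4.49 with N18 at 30 cycles, 5.25 with 3A6 at 12 cycles and 7.68 with N18 at 12 cycles, and -2.21 with 3A6 at 30 cycles. The rule used WT domains at 12 cycles, so the domain values at 12 cycles cannot be told apart from this selection. Without chromosomes 13 and 18 the island values with N18 were 3.39 at 30 cycles and -11.1 at 12 cycles, and that with 3A6 at 30 cycles was -7.38. The small N18 difference at 30 cycles did not keep its sign under 2 other settings. Without chromosome 6 the shares were 36.5% in WT and 35.5% in KO, and for islands outside LAP2alpha domains of both sonications they were 38.9% and 38.6%, so the opposite direction for islands rests on a sign that changes.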

How the results depend on the processing

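No paired analysis was possible because each group has 1 library. No replicate was left out for the same reason. Libraries held 3989494 to 13601739 reads in islands and 4183 to 9159 islands, and the effect of depth on the overlaps was not tested. Counting islands with under 50% of their bp in a domain as outside moved none of the 27 values. Islands outside LAP2alpha domains of both sonications gave a median of 20.5 reads per kb and 43.8% G+C. Their overlap by islands was 33.5% (lamin B1 12 cycles), 50.2% (3A6 WT 12), 27.4% (3A6 KO 12), 36.0% (N18 KO 12), 17.9% (LAP2alpha 30), 29.7% (lamin B1 30) and 26.7% (3A6 WT 30). By domains it was 9.63% (lamin B1 12), 13.1% (3A6 KO 12), 14.4% (N18 KO 12), 22.8% (lamin B1 30) and, by construction, 0% (LAP2alpha 30). With at least 50% of the island covered, the shares by islands were 24.9%, 34.9%, 34.7%, 18.5% and 26.8% for lamin B1, 3A6 WT, N18 WT, 3A6 KO and N18 KO at 12 cycles, 18.9% for LAP2alpha at 30 cycles, and 23.6%, 19.98%, 31.5%, 13.9% and 31.6% for the same order of lamins at 30 cycles.

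Keeping only islands above the median read count of their library left 2596 outside islands with a median of 27 kb, 20.3 reads per kb and 44.4% G+C, 27.2% with a start. By islands the shares were then 24.8% (lamin B1 12), 51.2% (3A6 WT 12), 50.8% (N18 WT 12), 36.1% (N18 KO 12), 22.2% (LAP2alpha 30), 22.2% (lamin B1 30), 22.3% (3A6 WT 30), 39.4% (N18 WT 30), 17.1% (3A6 KO 30) and 41.2% (N18 KO 30). By domains they were 6.82% (lamin B1 12), 8.74% (3A6 WT 12), 7.16% (N18 WT 12), 15.6% (N18 KO 12), 9.40% (LAP2alpha 30), 16.6% (lamin B1 30), 9.17% (3A6 WT 30), 10.8% (N18 WT 30) and 17.9% (N18 KO 30). Without chromosome 6 they were 29.4% (lamin B1 12), 46.0% (3A6 WT 12), 45.6% (N18 WT 12), 26.4% (lamin B1 30), 23.7% (3A6 WT 30) and 35.5% (N18 KO 30) by islands, and 13.6% (3A6 KO 12), 15.5% (N18 KO 12) and 11.1% (3A6 KO 30) by domains.

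A start of any annotated gene lay in 25.3% of outside islands, a protein-coding start within 10 kb of 31.9%, and the sum of reads over the sum of lengths was 21.1 per kb. Of the settings chosen after seeing the data, weighting inside islands to the chromosomes of outside islands turned the difference for lamin B1 at 12 cycles to -1.98 percentage points, and weighting to their lengths turned those for 3A6 KO to 0.149 at 12 cycles and 0.227 at 30. Leaving out chromosomes 13 and 18, or islands over 40 reads per kb, turned none of the 11 differences. The cause of the other shifts was not tested.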
